A study of Caenorhabditis elegans with 4 samples.

Results

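The 10 genes described here, nlp-24, nlp-25, nlp-27, nlp-28, nlp-29, nlp-30, nlp-31, nlp-32, nlp-33 and nlp-34, code for neuropeptide-like proteins of the nlp-29 type in C. elegans, out of 19912 genes in the gene table. They were taken by name from that table, and the list was chosen by earlier results on these same libraries, in which several of these genes had higher read counts with arsenite. The comparison of arsenite with control worms is therefore given for them as a description, with no test. RNA was measured by deep sequencing in whole wild-type N2 (Bristol) worms, adults at 48 h past the L4 larval stage. Control worms (2 libraries) were kept on agar plates with the solvent water, arsenite worms (2 libraries) on plates from the same agar batch with 100 nM arsenite for 48 h, and both were fed heat-inactivated OP50 bacteria. No source used here says whether the replicates were separate cultures, so the spread between them may be technical.

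Genes of this type are expressed in the epidermis, the skin of the worm, and code for short secreted precursors that are processed into peptides rich in glycine and aromatic residues. The gene nlp-29 is best known as a reporter of the response to the fungus Drechmeria coniospora and to wounds of the cuticle. In this response the receptor DCAR-1 signals through the G protein subunit GPA-12, protein kinase C and a p38 MAP kinase cascade to the transcription factor STA-2. RNA of a gene, not peptide, was measured here.

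Of the 10 genes, 9 lie on chromosome V of WBcel235 and 1, nlp-32, on chromosome III, and each has 2 exons in the Ensembl annotation. The precursors are 59 residues (nlp-34) to 105 residues (nlp-32) long. A cluster of 6 genes spans 10.9 kb of chromosome V, from 3978825 to 3989770, in the order nlp-34, nlp-31, nlp-30, nlp-29, nlp-28 and nlp-27. No other annotated gene lies between neighbours of this cluster, nlp-34 is on the minus strand, and the other 5 are on the plus strand. Outside the cluster, nlp-33 lies at 11147346 to 11147737, nlp-24 at 11616376 to 11616828 and nlp-25 at 19606180 to 19608419, all on the plus strand of the same chromosome. Only nlp-24 shares exon sequence with another gene, 24 nt at its end with glb-15 on the minus strand, and the sources used here do not describe reads as assigned by strand, so reads there cannot be told apart. The authors counted only reads with a single match in the genome, so reads from stretches that cluster genes have in common would be missing, which was not tested.

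The gene counts summed to 44263387 to 50472338 per library. Of the 10 genes, 9 passed the filter on low counts with which 13776 genes were tested. This filter asks for about 10 reads in 2 libraries, so it can keep a gene through the group in which it is high. The exception was nlp-32, which had 0 reads in both controls, 2 reads in arsenite replicate 1 and 0 reads in arsenite replicate 2. The limit that a count of 0 allows was set at 3 reads, nlp-32 had fewer in every library, and no fold change is given for it.

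The levels of the 10 genes differed widely. On the RPKM scale of the authors, which divides reads by transcript length and depth, the mean over the 4 libraries was 67.9 for nlp-29, 64.7 for nlp-27, 45.0 for nlp-28, 28.9 for nlp-33, 24.2 for nlp-31 and 16.8 for nlp-24. It was 3.13 for nlp-34, 1.58 for nlp-25, 1.2 for nlp-30 and 0.0494 for nlp-32. The ranges of neighbours in this order overlapped, except between nlp-24 and nlp-34 and between nlp-30 and nlp-32. Within a library the order held more often: nlp-27 was above nlp-28, nlp-28 above nlp-33, nlp-33 above nlp-31 and nlp-31 above nlp-24 in 4 of 4 libraries, whereas nlp-29 and nlp-27 each led in 2. The RPKM of nlp-30 rests on a length of 719 nt, longer than the 263 to 471 nt of the others, and Ensembl places 402 nt of its exons in the 5′ UTR. Ensembl has nlp-30 from 3981980 to 3982741, whereas a RefSeq annotation has it from 3982356 to 3982741. Its RPKM and its length correction below both rest on the longer model. For nlp-25 the files imply a length of 264 nt, whereas Ensembl gives 1668 nt of exons, of which 1331 nt are 5′ UTR.

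The cluster gene nlp-29 had normalized counts, that is counts scaled to a common library size, of 750.5 and 585.8 in the controls and of 851.3 and 1096 with arsenite, given here and in what follows with replicate 1 before replicate 2. The 2 arsenite libraries lay above the 2 controls, with means of 668.1 ± 116 (SD, n = 2) and 973.6 ± 173 (SD, n = 2) in control and arsenite worms. The fitted log2 fold change, arsenite over control, was 0.54 (standard error 0.14), a 1.46-fold difference. The step from the highest control to the lowest arsenite library was 1.13-fold, smaller than the 1.28-fold between the controls and the 1.29-fold between the arsenite libraries.

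In the same cluster nlp-31, whose peptide has been reported to act against microbes in vitro, had normalized counts of 313.7 and 246.9 in the controls and of 379.7 and 496.8 with arsenite. Again the arsenite libraries were the higher ones, without overlap, and the log2 fold change was 0.64 (standard error 0.155).

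At the far end of the cluster, nlp-27 had normalized counts of 611.2 and 388.0 in the controls and of 744.0 and 945.8 with arsenite. The adjacent nlp-28 had 406.2 and 263.0 in the controls and 471.6 and 823.5 with arsenite. Both genes were highest in arsenite replicate 2 and lowest in control replicate 2. The log2 fold changes were 0.75 (standard error 0.18) for nlp-27 and 0.95 (standard error 0.25) for nlp-28. For nlp-28 the 2 arsenite libraries differed by 1.75-fold, more than the 1.16-fold step between the groups.

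The gene nlp-33, which lies apart from the cluster, had normalized counts of 284.2 and 226.6 in the controls and of 342.6 and 464.3 with arsenite. Its order of libraries was that of nlp-27, nlp-28, nlp-29 and nlp-31, and its log2 fold change was 0.66 (standard error 0.16).

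**Figure D1:**
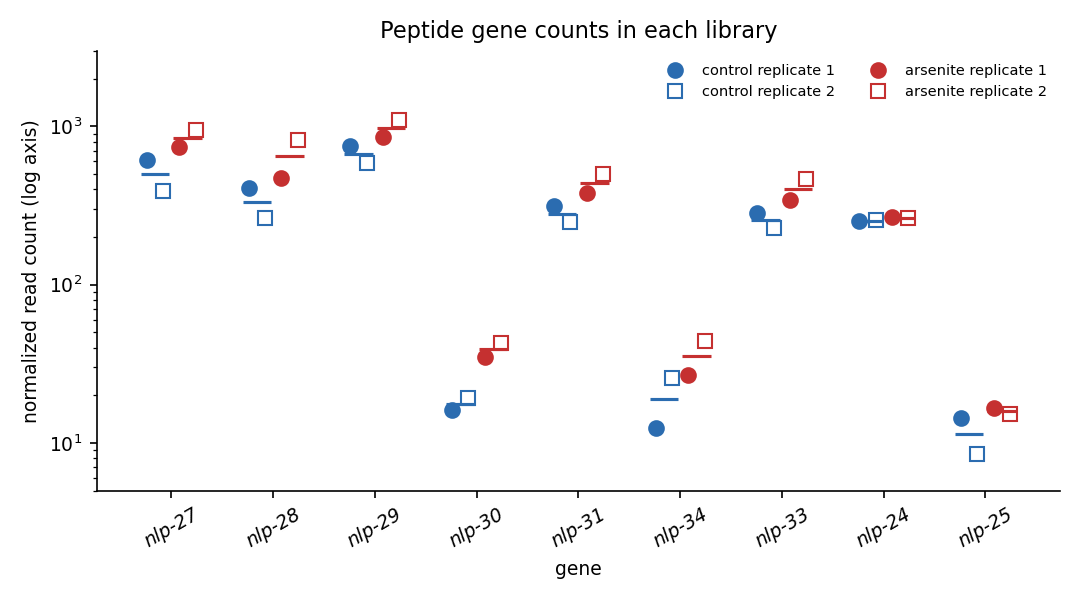
Normalized read counts (log axis) of the 9 tested peptide genes, 1 point per library, blue for control and red for arsenite, filled for replicate 1 and open for replicate 2, with short lines at the group means (n = 2). In nlp-29 the arsenite libraries stand at 851.3 and 1096 above controls at 750.5 and 585.8, while the 4 points of nlp-24 lie between 250.8 and 266.2.

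The weakly expressed cluster gene nlp-30 showed the clearest step between the groups relative to its replicates. Its raw counts were 17 and 18 in the controls and 34 and 45 with arsenite, and the 95% Poisson interval of the highest control, 10.7 to 28.4 reads, overlapped that of the lowest arsenite library, 23.5 to 47.5. Such intervals cover counting error only. In normalized counts the step from the highest control to the lowest arsenite library was 1.82-fold, against 1.19-fold between the controls and 1.23-fold between the arsenite libraries, and the log2 fold change was 1.14 (standard error 0.28).

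At the other end of the cluster nlp-34 had 13 and 24 reads in the controls and 26 and 46 with arsenite. Its controls differed by 2.07-fold, and the log2 fold change of 0.93 (standard error 0.38) was 0.47 without control replicate 1 and 1.51 without control replicate 2.

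The gene nlp-25 had 15 and 8 reads in the controls and 16 and 16 with arsenite. These counts do not separate the groups beyond counting error, and the log2 fold change of 0.45 (standard error 0.39) was 0.15 without control replicate 2 and 0.88 without control replicate 1. The gene nlp-26, its next numbered relative and not on the list, had normalized counts of 32.4 and 22.45 in the controls and 25.8 and 32.5 with arsenite, so the groups overlapped (log2 fold change 0.08, adjusted p = 0.98 by quasi-likelihood in edgeR).

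The level of nlp-24 hardly moved. This gene codes for peptides known from the control of feeding during starvation. Its normalized counts were 250.8 and 254.4 in the controls and 266.2 and 262.7 with arsenite, and the log2 fold change was 0.07 (standard error 0.11), or -0.01 after a correction for transcript length. The overlapping glb-15 had 21 to 25 reads per library, against 238 to 275 for nlp-24.

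Taking the 9 tested genes as a group, both arsenite libraries were above both controls in normalized counts in 9 of 9. The step from the highest control to the lowest arsenite library was small in nlp-24 (1.03-fold), nlp-34 (1.05-fold) and nlp-25 (1.07-fold). In raw counts the groups overlapped in nlp-24, with 263 and 238 in the controls and 258 and 275 with arsenite. Over all genes tested both arsenite libraries were above both controls in 17.1%. In the shortest 10% of genes, which hold 8 of the 9, the share was 31%. Since the list was chosen with this contrast known, the share of 9 of 9 says nothing further about it. The median log2 fold change was 0.66, beside 0.0055 over all genes tested. The size of the difference varied between libraries, whose numbers no label ties to a shared batch. For nlp-27, nlp-28, nlp-29, nlp-31 and nlp-33 arsenite was 1.13-fold to 1.22-fold higher than control among the libraries numbered 1, and 1.87-fold to 3.13-fold higher among those numbered 2. In these 5 genes the libraries followed the same order, control replicate 2 lowest, then control replicate 1, arsenite replicate 1 and arsenite replicate 2. This order was found in 718 (5.21%) of all genes tested. It requires both arsenite libraries above both controls, as in 2358 genes, and the list was chosen with that contrast known. The 5.21% is therefore too low a share to set beside these genes. In nlp-24, nlp-30 and nlp-34 control replicate 2 was the higher control instead.

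**Figure D2:**
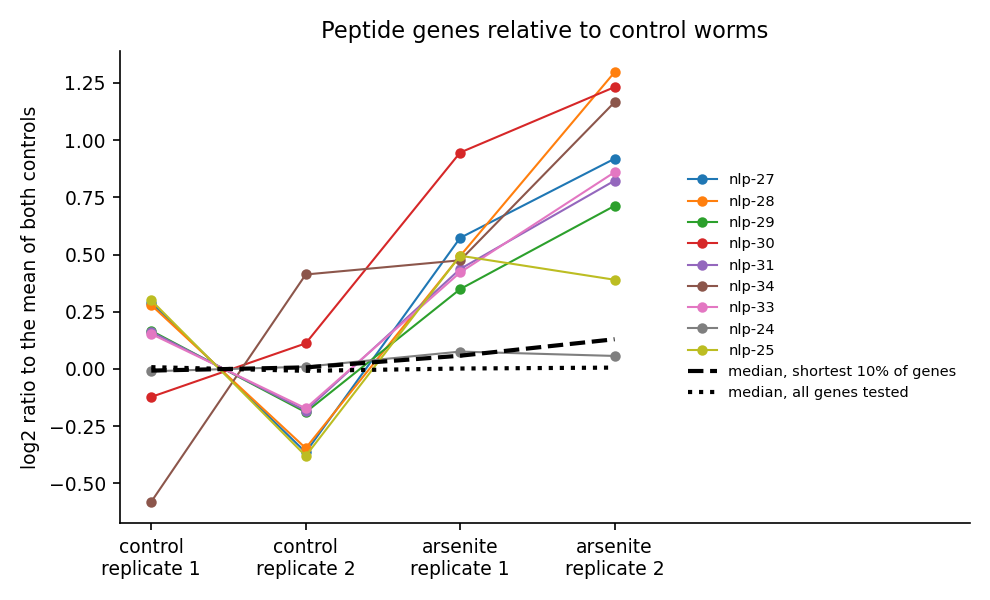
Log2 ratio of normalized counts to the mean of both controls (pseudocount 1) in each of the 4 libraries, 1 line per peptide gene, with the median of the shortest 10% of genes (dashed) and of all genes tested (dotted). The median of the peptide genes stands at 0.475 and 0.86 in the arsenite libraries numbered 1 and 2, and nlp-24 stays near 0.

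Summed over the 10 genes, normalized counts were 2660 and 2018 for the controls and 3136 and 4191 for arsenite. Of the raw counts nlp-31 made up 11.8% to 12.2% in every library, and nlp-29 made up 26.1% to 29%. The share of nlp-28 was lowest in control replicate 2 (13%) and highest in arsenite replicate 2 (19.6%), and that of nlp-24 went from 12.6% in control replicate 2 to 6.27% in arsenite replicate 2. Within the cluster, the largest fold changes were those of nlp-30, nlp-28 and nlp-34. The smallest was that of nlp-29, which lies between nlp-30 and nlp-28. Standard errors of the log2 fold changes from 0.14 (nlp-29) to 0.38 (nlp-34) do not resolve this order, and only nlp-34 is on the minus strand. Whether position or direction of transcription sorts the genes therefore cannot be told.

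**Figure D3:**
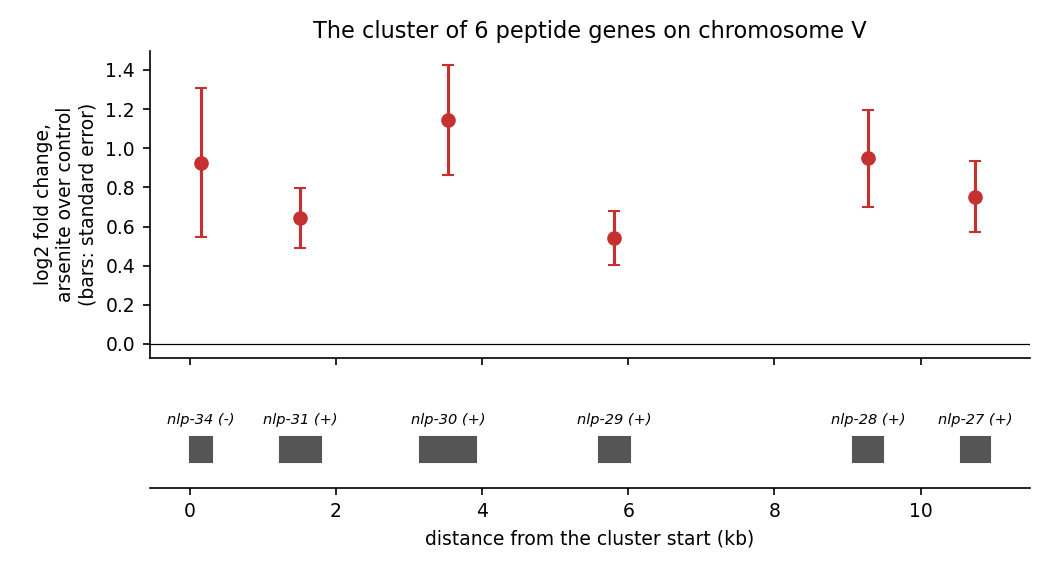
Log2 fold change of arsenite over control (upper panel, bars are standard errors of the fit) for the 6 cluster genes against distance along the cluster in kb (lower panel, boxes to scale, strand in brackets). Values run from 0.54 for nlp-29 to 1.14 for nlp-30.

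The transcripts of these genes are short, and the shortest genes of these libraries leaned higher with arsenite as a class. Of the 9 tested genes 8 are in the shortest 10% (up to 540 nt). The 1383 genes of that class had a median log2 fold change of 0.094, with a median log2 ratio to the control mean of 0.058 in arsenite replicate 1 and 0.13 in arsenite replicate 2, and in 429 of them both arsenite libraries were above both controls. Among the 385 tested genes of 300 to 400 nt the median log2 fold change was 0.158, while nlp-27, nlp-28, nlp-29 and nlp-33, of 316 to 368 nt, had 0.54 to 0.95. Among the 139 tested genes of 200 to 300 nt the median was 0.246, while nlp-25 (264 nt) had 0.45 and nlp-34 (263 nt) had 0.93. When a length trend was fitted in each library and removed, the median of the 9 genes went from 0.66 to 0.55, nlp-30 had 1.13, nlp-28 0.80, nlp-34 0.75, nlp-27 0.60, nlp-31 0.55, nlp-33 0.53 and nlp-29 0.42. The value of nlp-25 went from 0.45 to 0.28, and that of nlp-24 from 0.07 to -0.01. How far other properties of short transcripts take part was not tested.

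**Figure D4:**
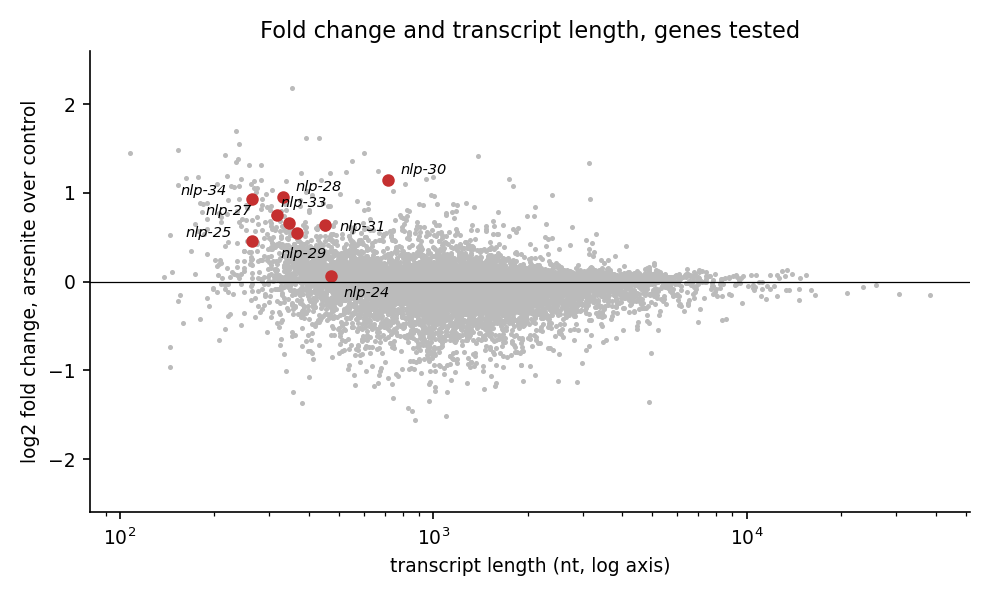
Log2 fold change of arsenite over control against transcript length (nt, log axis) for the 13776 genes tested (grey), with the 9 peptide genes in red. The peptide genes other than nlp-24 lie at 0.45 or higher, and nlp-30, at the length of 719 nt used here, lies beyond the shortest 10%.

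Leaving out 1 library moved the size of these differences. All 9 log2 fold changes stayed above 0 in each of those 4 fits. This largely follows from both arsenite libraries lying above both controls in 9 of 9 genes, so the sign was not put to a test. Removal of arsenite replicate 2 gave a median over the 9 genes of 0.489, and removal of control replicate 2 gave 0.485. Removal of arsenite replicate 1 gave 0.861, and removal of control replicate 1 gave 0.832. For nlp-29 these values were 0.35, 0.38, 0.72 and 0.73 in the same order, and for nlp-28 they were 0.49, 0.68, 1.30 and 1.30.

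Genes that earlier work places upstream of nlp-29, which are not on the list, were tested with edgeR's quasi-likelihood test over all genes. Of these 27 genes none passed at an adjusted p under 0.05, as did none (0%) of the 13776 genes tested, and the lowest adjusted p was 0.457. At an unadjusted p under 0.05 there were 4, all lower, beside 7.21% of all genes. By edgeR's exact and likelihood ratio methods and by DESeq2, 0 of the 27 passed, beside 1.01%, 1.14% and 0.218% of all genes. Of the 27 log2 fold changes 5 were above 0, the median was -0.094, and both arsenite libraries lay below both controls in 15 genes, a pattern seen in 19.1% of all genes tested.

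The receptor gene dcar-1 had a log2 fold change of -0.12 (95% interval -0.29 to 0.05), which did not pass. The MAP kinase gene pmk-1, the p38 kinase itself, had normalized counts of 796.2 and 761.1 in the controls and 765.7 and 761.4 with arsenite. Its log2 fold change was -0.03 (95% interval -0.21 to 0.15). The kinases above it, sek-1 and nsy-1, and the adaptor tir-1 had log2 fold changes of 0.02, -0.02 and -0.05.

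The transcription factor gene sta-2 had normalized counts of 302.3 and 268.3 in the controls and 259.0 and 245.5 with arsenite, with a log2 fold change of -0.18 (95% interval -0.44 to 0.08). Its partner snf-12, a transporter-like protein, had -0.30 (95% interval -0.65 to 0.05), and the epidermal GATA factor gene elt-3 had 0.07 (95% interval -0.11 to 0.26). The activity of the proteins was not measured.

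Damage to the furrows of the cuticle, which collagens of the dpy family build, is known to raise nlp-29. Of 6 furrow collagen genes none passed, and all 6 had log2 fold changes below 0. The lowest was that of dpy-8, -0.60 (standard error 0.19), with an adjusted p of 0.457 by quasi-likelihood in edgeR. Its normalized counts were 78.2 and 88.7 in the controls and 51.6 and 58.3 with arsenite. In the marker lists described below, values above 0 were 3 of 16 for epidermis, a list that includes dpy-7 and dpy-10, and 3 of 9 for intestine. They were 1 of 6 for body wall muscle, 0 of 6 for pharynx, 2 of 9 for neurons and 7 of 8 for germline. Whether the collagen values bear on nlp-29 was not tested. Among genes that hold the response down, the phosphatase gene vhp-1 had -0.18 and osm-8 -0.31, neither of which passed (adjusted p = 0.475 and 0.686 from the same test). The other listed genes of this kind went both ways, with -0.094 for dapk-1, 0.055 for gck-3 and 0.078 for wnk-1, and did not pass either.

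**Figure D5:**
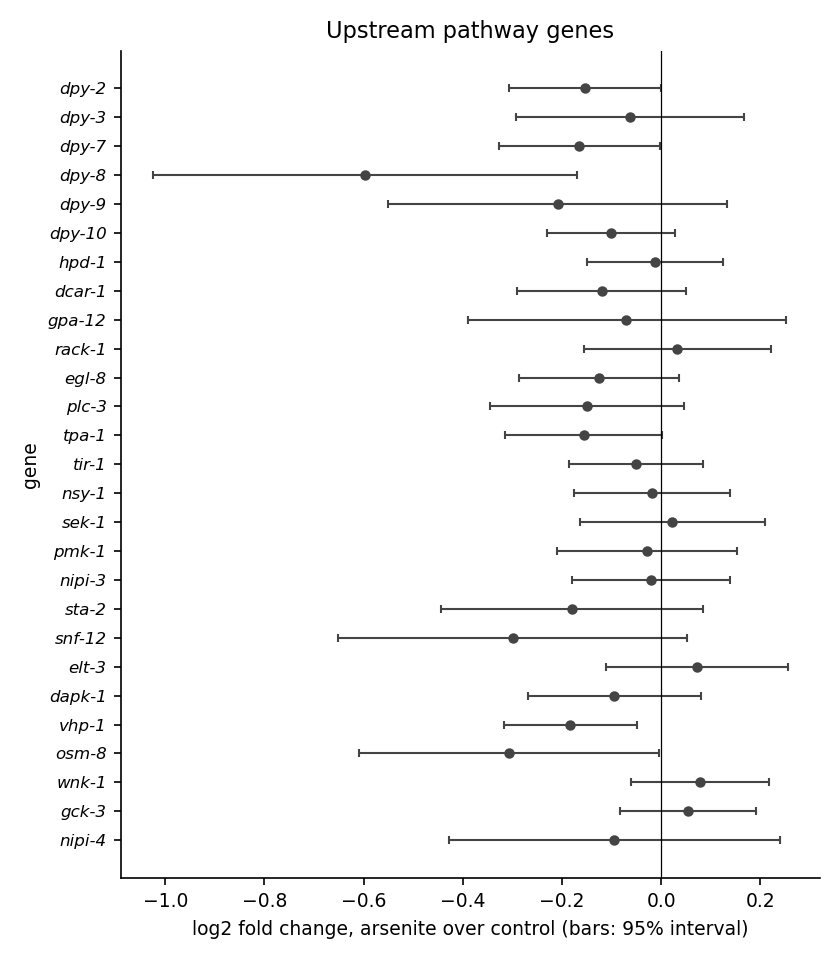
Log2 fold changes of arsenite over control for the 27 upstream genes, points with 95% intervals from edgeR's quasi-likelihood fit. Values run from -0.60 for dpy-8 to 0.08 for wnk-1, and none passed after adjustment over all genes.

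RNA of the epidermis was present in all libraries. All 17 epidermal marker genes had reads, and 16 were tested. Their summed normalized counts were 60390 and 62240 for the controls and 59180 and 57020 for arsenite, with a median log2 fold change of -0.085. One of them, the collagen gene sqt-1, passed edgeR's exact test, as did 1.01% of all genes (log2 fold change -0.94, adjusted p = 0.00107, but 0.227 by quasi-likelihood in edgeR). Of the 16 tested epidermal markers 3 had log2 fold changes above 0, and the largest was that of the adult collagen gene col-19, 0.14. In whole worms fewer cells of a type and less RNA per cell cannot be told apart. Median log2 fold changes of marker lists for other cell types were -0.087 (intestine), -0.106 (body wall muscle), -0.249 (pharynx), -0.204 (neurons) and 0.076 (germline). Of the 10 intestine markers listed 9 were found among the genes measured. No marker that was found was at 0 in all libraries. Of the 6 pharynx markers, 2 passed edgeR's exact test, the pharyngeal myosin genes myo-1 (log2 fold change -0.26, adjusted p = 0.0316) and myo-2 (log2 fold change -0.33, adjusted p = 0.00278), neither of which passed by quasi-likelihood (0.277 and 0.202). Summed normalized counts of these lists were 5569000 to 6319000 in controls and 6058000 to 7023000 with arsenite for intestine, 154000 to 163900 and 144800 to 149300 for muscle, 23260 to 23300 and 19910 to 20530 for pharynx, 20730 to 21610 and 19100 to 19680 for neurons, and 170100 to 182100 and 182400 to 188400 for germline. Their part in the result was not tested.

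The genes with the pattern most like the median of the peptide genes, by Euclidean distance over the log2 ratios of the 4 libraries, were lido-17, C10G8.4, T12B5.15, R11D1.3 and ins-3. Of these, C10G8.4 (333 nt) had normalized counts of 1312 and 1098 in the controls and 1706 and 2329 with arsenite, and T12B5.15 (302 nt) had 225.0 and 162.5, and 284.8 and 337.3. The other 3 had 8.55 to 23.9 normalized counts per library, so that their likeness rests on few reads. With 4 libraries such likeness is a description only.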

How the data were processed

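Per the labels and the study's methods, the authors prepared libraries with an mRNA kit, sequenced single reads, mapped them with Bowtie to the genome and to exon junctions, and assigned unique matches with RefSeq. CASAVA and the build WBcel235 are named in the submitters' notes on processing, without tool versions. The authors deposited whole-number read counts, not normalized, and RPKM values, per gene and per transcript. The gene count equals the sum over its transcripts in 19912 of 19912 genes, and each of the 10 genes has 1 transcript. Transcript lengths and the reads behind the RPKM values (30583832 to 35218389 per library) were derived from both columns. The gene counts sum to more than these reads, 44263387 to 50472338 per library. In genes with several transcripts a read may therefore be counted more than once.

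Gene counts were analysed with edgeR 4.0.16 in R 4.3.3 (filterByExpr with a minimum count of 10, TMM, glmQLFit with a prior count of 0.125, glmQLFTest, Benjamini-Hochberg adjustment, threshold 0.05), with arsenite against control as the only term. The standard error was taken as the size of the log2 fold change divided by the square root of F. The scripts were tested on simulated data. As alternatives DESeq2 1.42.0, the exact test and the likelihood ratio test of edgeR were run, with other scaling and filters, the replicate number as a term, a loess correction for length (span 0.5) and each library left out. The members, the pathway list, the caenacin list, the marker lists and the rule for named genes (all members, nlp-26, pathway genes including the receptor, kinases and transcription factors, and the 5 genes nearest in pattern) were chosen with earlier results of these data known. Coordinates and exons come from the Ensembl annotation of WBcel235. Sequences of the genes were not used here.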

Additional observations from a re-analysis of the deposited data

How the results depend on the processing

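The peptide genes kept their direction under nearly all settings tried. Of 96 log2 fold changes of the 9 genes under settings that keep all libraries, 94 were above 0. The exceptions were nlp-24 at -0.01 with the length correction, alone and with the replicate block. With 1 library left out 36 of 36 were above 0. These signs largely follow from both arsenite libraries lying above both controls in all 9 genes, for which the list was chosen, and are no test of direction. The median of the 9 genes, 0.658, ran from 0.553 with the length correction to 0.663 with DESeq2, was 0.614 with library size only and 0.649 with the replicate block, and was 0.485 to 0.861 with 1 library left out. It was 0.65 over the 6 genes with a mean normalized count of 100 or more, a choice made after seeing the data. A minimum count of 50 left out nlp-25, nlp-30 and nlp-34. None of the 27 pathway genes passed under any setting. Without passing, sek-1 changed sign with library size only (-0.016), and with 1 library left out it ran from -0.079 to 0.12, nsy-1 from -0.098 to 0.066 and pmk-1 from -0.06 to 0.002.

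Across all genes the number called did depend on the processing. It was 0 by the quasi-likelihood test, 139 by the exact test, 157 by the likelihood ratio test, 30 by DESeq2, 79 with no filter on low counts, 80 with the replicate block, 76 with the length correction and the block, and 105 by the likelihood ratio test with the length correction (added after seeing the data). With 1 library left out it was 2 (without control replicate 2) to 193 by the quasi-likelihood test. By the exact test (also added) it was 11 when arsenite replicate 2 was left out, 162 for arsenite replicate 1, 211 for control replicate 1 and 258 for control replicate 2. The cause was not tested. The replicate numbers are shared between the groups, but no label ties them to a batch, and deviations of libraries with the same number had a correlation of 0.0487 across genes, so the block is not used above. The genes with few reads, nlp-25, nlp-30, nlp-32 and nlp-34, are limited by depth.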

Other observations

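The caenacins, a further family of short secreted peptides of the epidermis, were looked at beside the genes above. This family was also chosen with earlier results of these data known. The counts and shares below are therefore a description and no independent support. Of 11 caenacin genes 6 had enough reads to be tested, and all 6 had log2 fold changes above 0, from 0.21 to 1.09 with a median of 0.52. By edgeR's quasi-likelihood, exact and likelihood ratio tests and by DESeq2, 0 of the 6 passed at an adjusted p under 0.05, beside 0%, 1.01%, 1.14% and 0.218% of all genes tested. By the quasi-likelihood test 5 of the 6 had an unadjusted p under 0.05, beside 7.21% of all genes. In normalized counts both arsenite libraries were above both controls in 17.1% of all genes and in 31% of the shortest 10%. Among the 6 caenacins this was so in 4, cnc-2, cnc-4, cnc-8 and cnc-10. Of these, cnc-4 had 135.4 and 146.4 in the controls and 208.4 and 181.5 with arsenite, and cnc-8 had 112.5 and 84.4, and 118.7 and 236.0. The groups overlapped in cnc-3 and in cnc-7, the latter with 48.6 and 14.96 in the controls and 47.5 and 90.8 with arsenite. All 6 genes, from 204 nt (cnc-7) to 414 nt (cnc-3), are within the shortest 10%, whose median log2 fold change was 0.094. The median was 0.246 among tested genes of 200 to 300 nt and 0.158 among those of 300 to 400 nt.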
